A study of Mus musculus with 2 samples.

Results

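RNA of 38 genes for Eph receptors, ephrins, Slits, Robo receptors, netrins and netrin receptors was compared between Osr2 mutant and control lower molar mesenchyme of mouse embryos at embryonic day 14.5. The members were chosen by gene name, with earlier results of these data known, among 22072 gene names in the deposited tables. They comprise 23 receptor genes and 15 ligand genes. The mutant library came from Osr2-/- embryos (n = 1) and the control library from Osr2+/- embryos (n = 1), so the control also carried a mutant Osr2 allele. Both were of mixed background, and each library was made from tissue pooled over 3 embryo pairs. With 1 library per genotype there is no replicate spread, no test of genotype was made, and every difference below describes these libraries only. Osr2, a zinc-finger transcription factor gene of the dental mesenchyme, was at 9.16 RPKM in the mutant library and 38.7 RPKM in the control library.

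Eph receptors are tyrosine kinases that bind ephrins on neighbouring cells. EphA receptors mainly bind ephrin-A ligands, which are held in the membrane by a lipid anchor, while EphB receptors mainly bind ephrin-B ligands, which span the membrane and can signal in return. Slits are secreted proteins that act through Robo receptors, and netrins act through Dcc, which mostly attracts, and through the Unc5 receptors, which mostly repel. Known first from growing axons, these families also sort cells and set tissue boundaries, and mutations of the ephrin-B1 gene cause a craniofacial syndrome in humans. In tooth germs they are of interest both for the mesenchyme itself and for the nerve fibres that grow around it.

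RPKM is a read count scaled for transcript length and library size, so levels of different genes can be set side by side. The mutant library was 6.38 times as deep as the control library, as estimated from coverage. An interval in brackets is a 95% counting interval from approximate read numbers. It covers counting error only, and it is too narrow where copies of a molecule made by amplification are counted again. Lane and genotype cannot be told apart, because each library ran on a lane of its own. In pooled tissue, fewer cells of a type and less RNA per cell cannot be told apart.

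Epha3 and Epha7 were lower in the mutant library, as were Slit3, Robo1, Robo2 and Dcc, while Efnb2 and Unc5b were higher. Summed over all receptors, the level was 106 RPKM in the mutant library and 162 RPKM in the control library, 1.53-fold lower (1.48 to 1.58). Summed over all ligands, it was 61.4 RPKM in the mutant library and 66.03 RPKM in the control library, 1.07-fold lower (1.01 to 1.13). The receptors therefore made up more of the difference than the ligands. Summed over all genes, the level was also 1.03-fold lower in the mutant library, a value inside the interval of the ligand sum. The ligand sum is thus not set apart from the sum of all genes. Receptor RPKM per ligand RPKM was 1.72 in the mutant library and 2.45 in the control library.

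**Figure D1:**
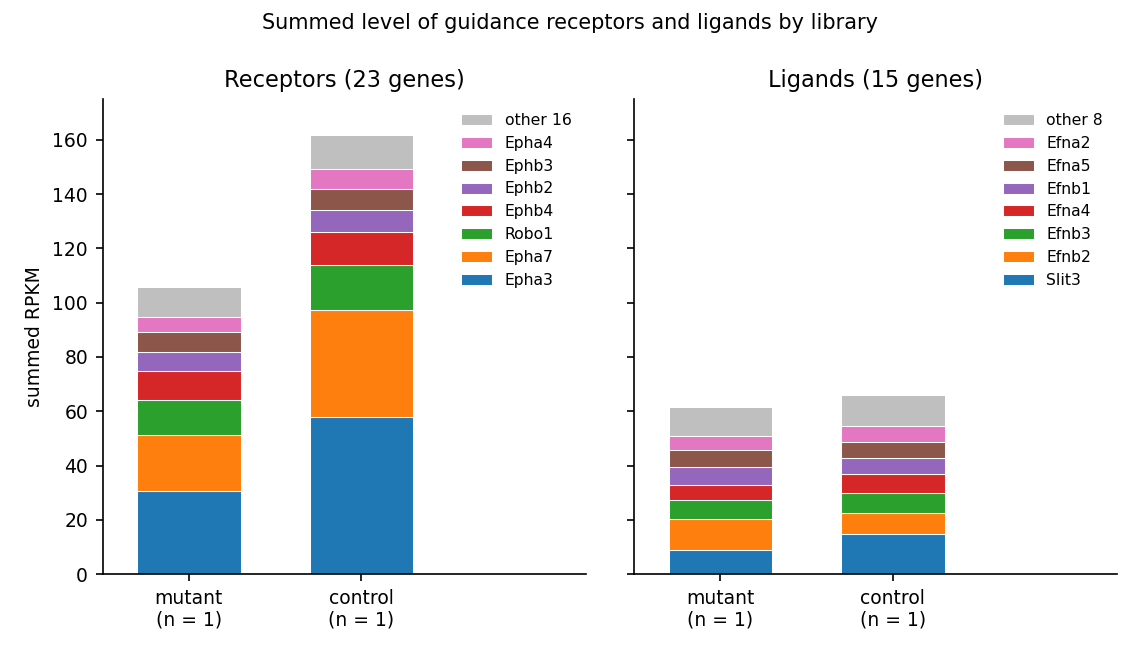
Summed RPKM (vertical axis, linear from 0) of the 23 receptor genes (left panel) and the 15 ligand genes (right panel) in the mutant and the control library, stacked by gene. The receptor column reaches 106 RPKM in the mutant library and 162 RPKM in the control library, and Epha3 and Epha7 make up most of the step, while the ligand columns stand at 61.4 RPKM in the mutant and 66.03 RPKM in the control library.

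Of the 38 members, 23 reached 1 RPKM in at least 1 library and were compared one by one on the ratio of RPKM + 1. None of the 23 was at least 2-fold higher in the mutant library, where 0.89% of all 9779 genes tested were, and none was at least 2-fold lower, where 0.798% of all genes were. At 1.5-fold, none was higher (2.55% of all genes) and 4 were lower (3.57% of all genes), namely Epha3, Epha7, Slit3 and Dcc. Dcc, Efna3 and Epha5 passed the filter only through the control library, so their ratios could only lie below 1. After rescaling to TPM, where 32 members passed the filter, 6 were higher (12.1% of all genes) and 6 lower (11.6% of all genes). TPM values are larger numbers, and the filter and the added value stayed at 1, so both weighed less there. Members on few control reads thereby entered, such as Ntn1 on about 1 and Ntn4 on 0. These counts thus do not show an effect of the scale alone. On the RPKM scale Efna3 lay just inside the 1.5-fold limit with a log2 ratio of -0.58, and Slit3 lay just beyond it at -0.66. The counting interval lay below 1 for 9 of the 23 (15.9% of all genes) and above 1 for 2 (7.87% of all genes). The median log2 ratio was -0.18 over the 23 members and -0.05 over all genes tested. Of the 23 members, 18 had a log2 ratio below 0 and 5 above 0, while of all 9779 genes 5623 were below 0 and 4156 above 0. Intervals exclude 1 more readily for abundant genes, and 15 members reached 5 RPKM. Of these, 6 had an interval below 1, where 20.8% of the 3909 genes at that level had, and 3 were at least 1.5-fold lower, where 2.74% were.

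**Figure D2:**
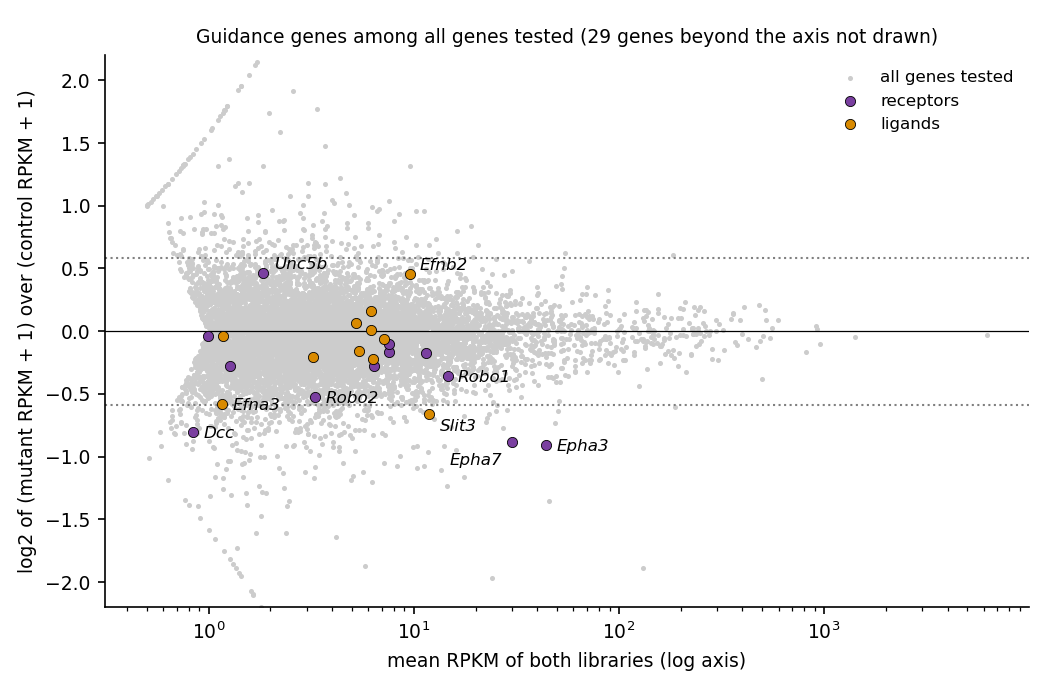
Mean RPKM of both libraries (horizontal log axis) against the log2 ratio of mutant over control with 1 RPKM added to each (vertical axis), for all genes tested (grey, 29 of them beyond the axis) and the 23 members at 1 RPKM or more (purple for receptors, orange for ligands). Epha3 and Epha7 sit at the lower edge of the grey cloud at -0.91 and -0.89, and dotted lines mark 1.5-fold.

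Epha3 was the most abundant gene of the families. It encodes a receptor that binds ephrin-A ligands, chiefly ephrin-A5, and lies on chromosome 16 from 63545044 to 63863983 in mm9. Its level was 30.5 RPKM (29.5 to 31.4) in the mutant library and 57.9 RPKM (54.7 to 61.2) in the control library. The intervals do not overlap, and the ratio was 1.90-fold lower (1.78 to 2.03), on about 4157 mutant and 1239 control reads.

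Epha7, another ephrin-A receptor gene known for roles in neural crest and brain, lies on chromosome 4 from 28740295 to 28894649. It was at 20.8 RPKM (20.2 to 21.5) in the mutant library and 39.4 RPKM (37.3 to 41.5) in the control library, 1.89-fold lower (1.80 to 2.03). Epha3 and Epha7 thus stood close to each other in their ratios. Ordered from the lowest log2 ratio among the 3909 genes at 5 RPKM or more, Epha3 took rank 37 and Epha7 rank 38. Together they held 86.8% of the EphA receptor RPKM in the mutant library and 91.5% in the control library. They also carried 81.9% of the difference in summed receptor RPKM between the libraries.

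Epha7 is listed with a long and a short transcript, and both were lower in the mutant library. The long transcript of 6732 bases was at 17.7 RPKM in the mutant library and 34.2 RPKM in the control library. The short transcript of 3272 bases, which ends upstream at 28874603, was at 3.18 RPKM in the mutant library and 5.14 RPKM in the control library. It took 15.3% of the Epha7 level in the mutant library and 13.1% in the control library, so the share of the short transcript was close in both.

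The other EphA receptors were lower in level and closer to equal. Epha4, which binds ephrins of both classes and is a classical receptor of axon repulsion, was at 5.67 RPKM (5.36 to 5.998) in the mutant library and 7.10 RPKM (6.22 to 8.03) in the control library, 1.25-fold lower (1.08 to 1.43). Epha5 was at 0.963 RPKM in the mutant library and 1.0198 RPKM in the control library, and its interval spanned equality (1.06-fold lower, 0.75 to 1.48). Without Epha3 and Epha7, the EphA sum was 7.84 RPKM in the mutant library and 9.09 RPKM in the control library, 1.16-fold lower (1.04 to 1.33). Epha1 and Epha2, known from epithelia, stayed below 1 RPKM. Epha2 was at 0.862 RPKM in the mutant library and 0.516 RPKM in the control library, and Epha1 at 0.319 RPKM in the mutant library and 0.458 RPKM in the control library. Their control levels rest on about 11 and 8 reads, and both ratios had intervals that spanned 1.

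**Figure D3:**
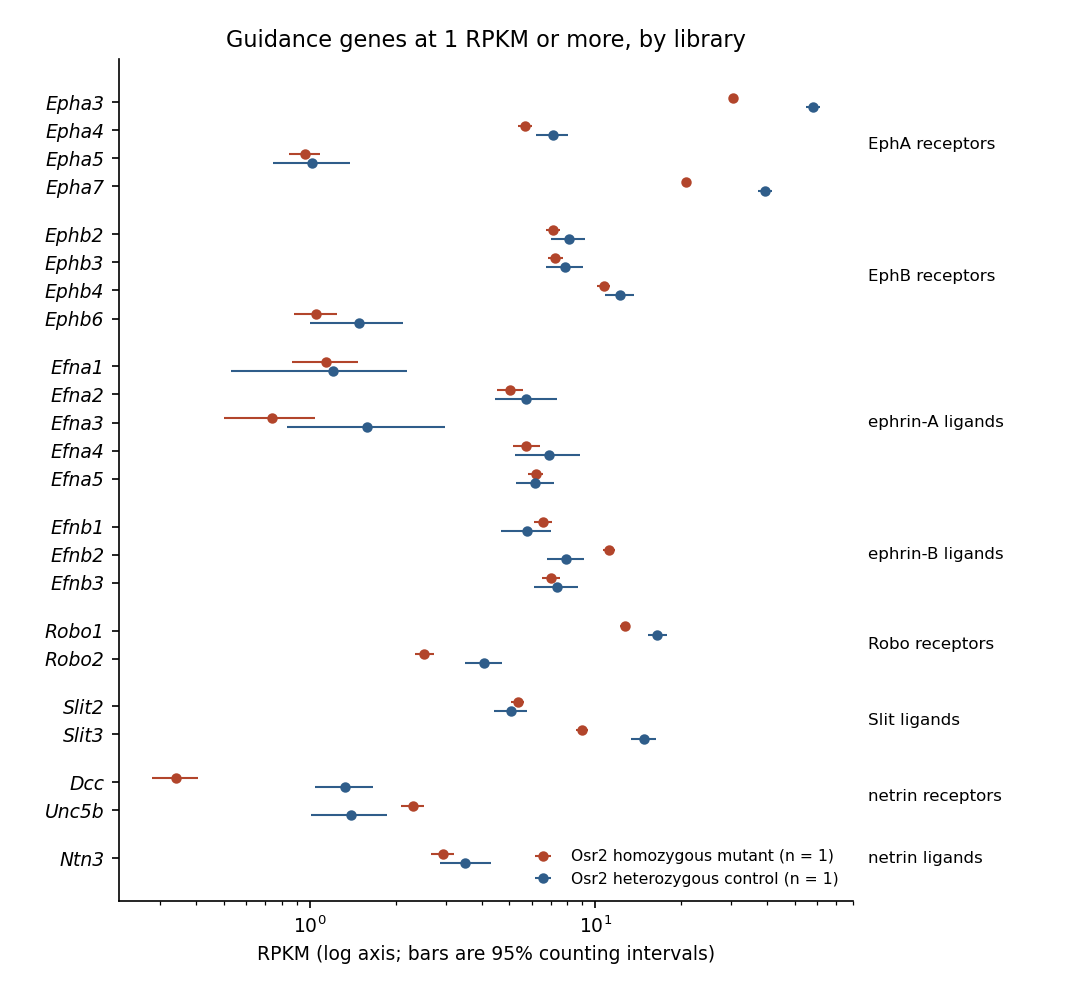
RPKM (horizontal log axis) of each of the 23 members at 1 RPKM or more, by gene (rows, grouped by class), in the mutant (red) and the control library (blue), with 95% counting intervals as bars. Epha3 and Epha7 lie farthest right in both libraries, and Dcc, at 0.339 RPKM in the mutant and 1.33 RPKM in the control library, shows the widest gap between its points.

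All 4 EphB receptors that passed the filter had ratios below 1, but the intervals of Ephb2, Ephb3 and Ephb6 spanned 1. Ephb4, the receptor gene of veins and of bone-forming cells that pairs with ephrin-B2, was at 10.7 RPKM (10.2 to 11.2) in the mutant library and 12.2 RPKM (10.8 to 13.7) in the control library, 1.14-fold lower (1.003 to 1.296). Ephb2, a receptor gene of boundary formation, was at 7.11 RPKM in the mutant library and 8.07 RPKM in the control library, with an interval that spanned equality (1.14-fold lower, 0.97 to 1.31). Ephb3, known to act together with Ephb2 in palate closure in mice, was at 7.26 RPKM in the mutant library and 7.86 RPKM in the control library (1.08-fold lower, 0.92 to 1.27). Ephb6, whose kinase domain lacks activity, was at 1.05 RPKM in the mutant library and 1.49 RPKM in the control library (1.42-fold lower, 0.91 to 2.10). Ephb1 was below the filter, at 0.608 RPKM in the mutant library and 0.716 RPKM in the control library. Ephb4, Ephb3 and Ephb2 shared the EphB sum in nearly the same proportions in both libraries. Ephb4 held 40.1% of it in the mutant library and 40.3% in the control library.

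With 1 RPKM added to each level, none of the 5 ephrin-A ligands was beyond 1.5-fold. Efna5, the ligand that Epha3 binds best, was at 6.20 RPKM (5.84 to 6.57) in the mutant library and 6.15 RPKM (5.28 to 7.15) in the control library, a ratio of 1.01 (0.85 to 1.18). Efna4 was at 5.75 RPKM in the mutant library and 6.89 RPKM in the control library (1.20-fold lower, 0.89 to 1.58). Efna2 was at 5.03 RPKM in the mutant library and 5.74 RPKM in the control library (1.14-fold lower, 0.87 to 1.49). The intervals of these 3 genes overlap, so no difference was detectable at this depth. Efna3 was at 0.736 RPKM in the mutant library and 1.59 RPKM in the control library, 2.17-fold lower as a plain ratio (1.03 to 4.63), on only about 11 control reads. It passed the filter only through the control library. Efna1 was at 1.14 RPKM in the mutant library and 1.20 RPKM in the control library (1.06-fold lower, 0.43 to 2.01). Efna1, Efna3 and Efna4 lie side by side on chromosome 3 between 89075652 and 89141950, and of these neighbours Efna3 alone had an interval off 1. Ligand RPKM per receptor RPKM in the A class was 0.319 in the mutant library and 0.203 in the control library.

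The ephrin-B ligands summed to 24.8 RPKM in the mutant library and 21.003 RPKM in the control library, 1.18-fold higher (1.09 to 1.34). Efnb2, which marks arteries and is also made by mesenchyme and osteoblasts, lies on chromosome 8 from 8617439 to 8660773. It was at 11.2 RPKM (10.7 to 11.7) in the mutant library and 7.89 RPKM (6.78 to 9.11) in the control library, 1.42-fold higher (1.22 to 1.66). The intervals of its levels do not overlap. Efnb1, the X-linked gene of the craniofacial syndrome named above, was at 6.58 RPKM in the mutant library and 5.77 RPKM in the control library, 1.14-fold higher (0.93 to 1.42). The pools differed in sex-linked genes, with X-linked Xist at 30.0 RPKM in the mutant library and 5.21 RPKM in the control library. Y-linked Ddx3y was listed at 0 in the mutant library and was at 3.28 RPKM in the control library. The part of this difference in the ratios of Efnb1 and the other members was not tested. Efnb3 was at 6.99 RPKM in the mutant library and 7.34 RPKM in the control library, a ratio of 0.95 (0.79 to 1.16). Efnb2 held 45.2% of the ephrin-B sum in the mutant library and 37.6% in the control library.

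**Figure D4:**
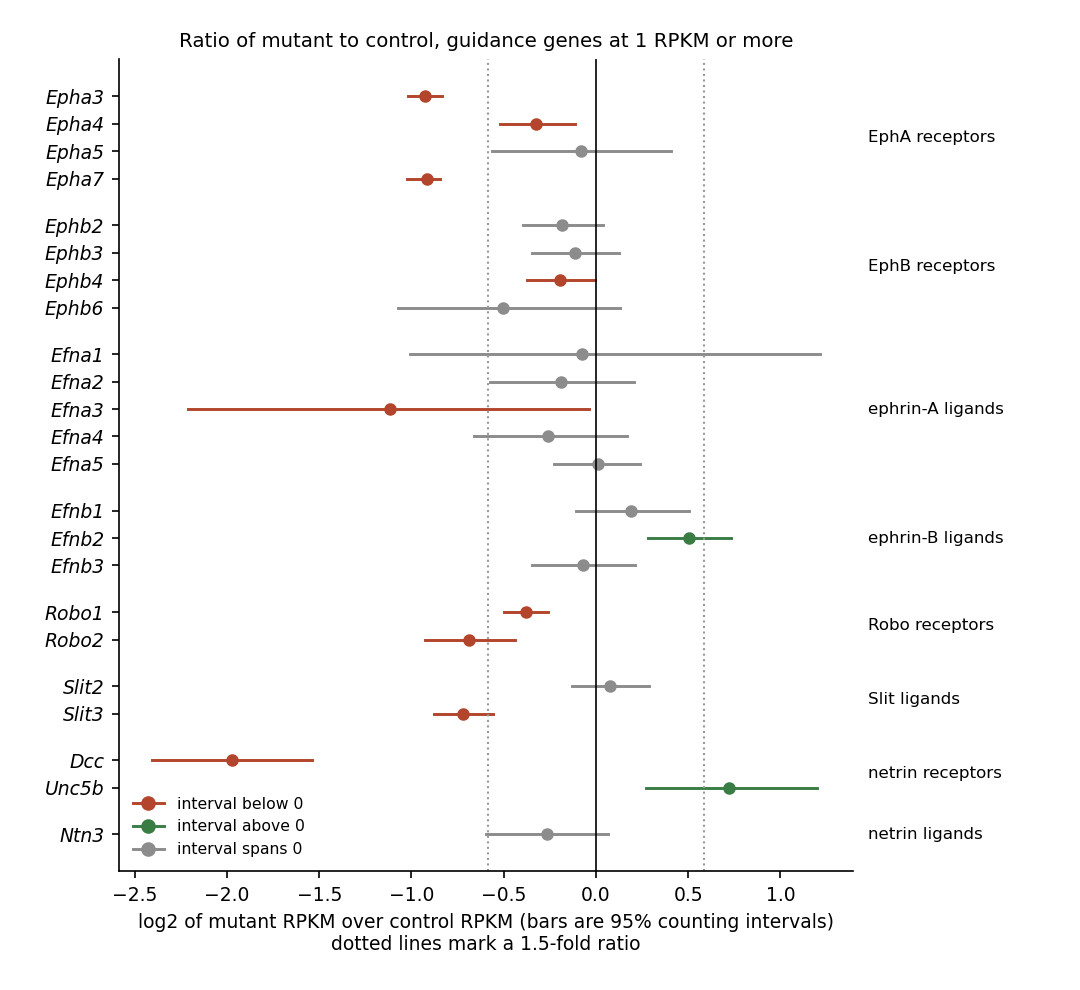
Log2 of mutant RPKM over control RPKM (horizontal axis, plain ratio with no RPKM added) for the 23 members at 1 RPKM or more, by gene and class, with 95% counting intervals as bars (red below 0, green above 0, grey spanning 0) and dotted lines at 1.5-fold. Of the 23 intervals, 9 lie below 0 and 2 above, those of Efnb2 and Unc5b.

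Slit3 was lower in the mutant library while Slit2 was not. Slit3, a secreted ligand gene on chromosome 11 from 34934958 to 35522009, was at 8.99 RPKM (8.55 to 9.45) in the mutant library and 14.8 RPKM (13.4 to 16.3) in the control library. The intervals do not overlap, and the ratio was 1.65-fold lower (1.47 to 1.84). Slit2, on chromosome 5 from 48374394 to 48697017, was at 5.35 RPKM (5.08 to 5.63) in the mutant library and 5.08 RPKM (4.42 to 5.795) in the control library, a ratio of 1.05 (0.91 to 1.22). Slit3 held 62.7% of the Slit sum in the mutant library and 74.5% in the control library. Slit1, a ligand mainly of the nervous system, was listed at 0 in both libraries, where 3 reads would be 0.0167 RPKM in the mutant library and 0.107 RPKM in the control library. Without Slit3, the ligand sum was 52.4 RPKM in the mutant library and 51.2 RPKM in the control library.

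Robo1, the most abundant Slit receptor gene here, was at 12.7 RPKM (12.3 to 13.1) in the mutant library and 16.5 RPKM (15.3 to 17.8) in the control library, 1.30-fold lower (1.20 to 1.42). Robo2, its neighbour on chromosome 16 that also binds Slits, was at 2.53 RPKM (2.34 to 2.72) in the mutant library and 4.08 RPKM (3.49 to 4.71) in the control library, 1.61-fold lower (1.36 to 1.90). With 1 RPKM added to each level the log2 ratio of Robo2 was -0.53, inside the 1.5-fold limit. Robo4, known mainly from blood vessels, was at 0.775 RPKM in the mutant library and 0.970 RPKM in the control library. Robo3 was at 0.00524 RPKM in the mutant library, about 1 read, and was listed at 0 in the control library. Slit and Robo sums kept a similar proportion, with 0.897 Slit RPKM per Robo RPKM in the mutant library and 0.923 in the control library.

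The introns of Slit2 and Slit3 hold the genes Mir218-1 and Mir218-2, whose common product miR-218-5p is known to repress Robo1 in human cells. Its sequence is shown because its genes lie within ligand genes and that known target is a receptor gene. A link between them was not tested here. The seed (bases 2 to 8) is in capitals, as RefSeq lists it for GRCm38.p6.
mmu-miR-218-5p from Mir218-1 in Slit2, chr5:48223966-48223986, plus strand: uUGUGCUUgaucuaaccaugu
mmu-miR-218-5p from Mir218-2 in Slit3, chr11:35616840-35616860, plus strand: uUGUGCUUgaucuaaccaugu

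The Mir218-1 row was listed at 0 in the mutant library and at 3.21 RPKM in the control library, which is about 2 reads on 110 bases. Mir218-2 was listed at 0 in both libraries, so nothing can be read from these rows about the microRNA. Letters complementary to the seed (AAGCACA, searched on the transcript strand) occur in the 3′ UTRs of 11 of 37 members, or 29.7%, and of 11.98% of 19958 genes in GENCODE M21 transcripts matched to the files. Member 3′ UTRs are longer, with a median of 1464 bases against 752.5 bases over all genes. Per kilobase there were 0.19 matches in members and 0.113 over all genes. Robo1 and Robo3 hold 1 match each and Robo2 holds 2, while the 3′ UTRs of Epha3, Epha4, Slit3, Dcc, Efna3 and Ephb4 hold none. Matches also occur in Efnb2, whose interval lay above 1, and in Efna4, Efnb1, Epha5 and Ephb2, whose intervals spanned 1. Epha8 and Ntn4, below the filter, hold matches too. The matches in Robo1, Robo2 and Epha7, members at 1 RPKM or more with an interval below 1, are shown with the complementary letters in capitals, in GRCm38 coordinates.
Robo1, chr16:73045338-73045359, plus strand: ttggttttaaAAGCACAatcac
Robo2, chr16:73895354-73895375, minus strand: atttggtgatAAGCACAaatct
Robo2, chr16:73893028-73893049, minus strand: cggcagacccAAGCACAgcttc
Epha7, chr4:28967410-28967431, plus strand: tcaatgtatcAAGCACAaataa

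These matches describe the sequence and are not measured sites.

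The netrin branch was the least expressed, with receptors that went both ways. Dcc, on chromosome 18 from 71413286 to 72510723, was at 0.339 RPKM (0.281 to 0.405) in the mutant library and 1.33 RPKM (1.05 to 1.67) in the control library. The plain ratio was 3.93-fold lower (2.90 to 5.30), on about 120 mutant and 74 control reads, the lowest plain ratio among the 23 members. Dcc passed the filter only through the control library, where it was higher. Unc5b, a repulsive netrin receptor gene also known from blood vessels, was at 2.29 RPKM (2.09 to 2.515) in the mutant library and 1.39 RPKM (1.01 to 1.87) in the control library, 1.65-fold higher (1.21 to 2.297). The intervals of the levels do not overlap for either gene. Summed over Dcc and the Unc5 genes, the level was 3.75 RPKM in the mutant library and 3.44 RPKM in the control library, with Dcc at 9.05% of it in the mutant library and 38.7% in the control library.

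Unc5d, below the filter, was at 0.343 RPKM in the mutant library and 0.142 RPKM in the control library, 2.42-fold higher (1.13 to 6.16) on about 7 control reads. Unc5c was at 0.603 RPKM in the mutant library and 0.515 RPKM in the control library (1.17-fold, 0.77 to 1.82), and Unc5a at 0.168 RPKM in the mutant library and 0.0585 RPKM in the control library, the last on about 1 read. Among the netrins, Ntn3 alone passed the filter, at 2.92 RPKM in the mutant library and 3.51 RPKM in the control library (1.20-fold lower, 0.96 to 1.51). Its span overlaps that of Tbc1d24 by 1717 bases. Because no strand setting is given in the sources used here, reads of the overlap cannot be assigned to either gene. Ntn1, the best known chemoattractant of the family, was at 0.250 RPKM in the mutant library and 0.0338 RPKM in the control library, on about 49 mutant reads and 1 control read, a ratio of 7.38 (1.32 to 309.6). In the mutant library Ntn4 was at 0.248 RPKM and Ntn5 at 0.0561 RPKM, and both were listed at 0 in the control library. Epha6, Epha8 and Epha10 completed the 15 members under 1 RPKM. Epha10 was listed at 0 in both libraries, and Epha6 and Epha8 were at no more than 0.0108 RPKM in the mutant library and listed at 0 in the control library.

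For 6 members the tables list more than 1 transcript. The split was close in both libraries for Epha7, as given above, and for Ephb1, and it differed for Efna5, Ephb6, Efna1 and Ephb4. Efna5 was at 1.01-fold in total, yet its transcript of 5178 bases held 35.2% of the level in the mutant library and 10.5% in the control library. The Ephb6 transcript of 3760 bases held 49.4% in the mutant library and 1.28% in the control library. Efna1 was assigned nearly wholly to its transcript of 1483 bases in the mutant library and to that of 1447 bases in the control library. These transcripts share most of their length, so the authors' split rests on few reads, about 30 in all for Ephb6 and 9 for Efna1 in the control library. The split of Ephb4 was 8.67% in the mutant library and 0.0183% in the control library on the transcript of 4361 bases.

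Promoter sequences are shown for the 3 abundant members that were at least 1.5-fold lower and for Efnb2, the member at 5 RPKM or more with the highest ratio. Each is the stretch of 250 bases before the start in RefSeq, GRCm38.p6. Capitals mark matches on either strand to the letters GGGCGG, known as a GC box, the CCAAT box, spelled as its name, and the letters TATAAA of the TATA box.
Epha3, chr16:63864176-63864425, minus strand: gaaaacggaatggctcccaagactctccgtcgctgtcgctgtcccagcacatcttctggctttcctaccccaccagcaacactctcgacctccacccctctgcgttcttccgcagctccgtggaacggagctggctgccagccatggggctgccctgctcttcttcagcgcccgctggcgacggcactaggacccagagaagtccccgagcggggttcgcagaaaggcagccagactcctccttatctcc
Epha7, chr4:28812881-28813130, plus strand: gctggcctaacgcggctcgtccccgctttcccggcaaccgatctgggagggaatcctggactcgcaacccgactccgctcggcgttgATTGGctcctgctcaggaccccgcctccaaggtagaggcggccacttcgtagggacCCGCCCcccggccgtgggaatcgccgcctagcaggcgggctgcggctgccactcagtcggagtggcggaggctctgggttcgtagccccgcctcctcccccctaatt
Slit3, chr11:35121206-35121455, plus strand: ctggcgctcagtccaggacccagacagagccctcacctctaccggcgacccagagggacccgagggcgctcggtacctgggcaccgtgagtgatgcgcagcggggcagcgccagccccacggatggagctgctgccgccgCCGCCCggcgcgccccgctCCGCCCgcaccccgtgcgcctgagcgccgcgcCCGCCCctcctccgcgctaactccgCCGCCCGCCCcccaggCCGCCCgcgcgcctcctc
Efnb2, chr8:8661243-8661492, minus strand: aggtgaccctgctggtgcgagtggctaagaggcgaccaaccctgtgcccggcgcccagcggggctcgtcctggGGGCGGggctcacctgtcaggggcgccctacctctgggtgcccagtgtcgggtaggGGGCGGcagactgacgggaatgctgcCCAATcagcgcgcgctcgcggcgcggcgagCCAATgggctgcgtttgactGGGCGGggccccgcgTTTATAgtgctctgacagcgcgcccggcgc

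RefSeq lists a promoter for 33 of the 38 members, and the first listed was used where there were several. A GC box occurred in 23 of the 33 (69.7%) and in 32.9% of 27025 promoters of the same length. A CCAAT box occurred in 12 (36.4%) and in 34.5% of all promoters, and a TATA box in 2 (6.06%) and in 12.97% of all promoters. Epha3 held none of these letters, Epha7 held 1 GC box and 1 CCAAT box, Slit3 held 6 GC boxes, in part overlapping, and Efnb2 held 3 GC boxes, 2 CCAAT boxes and 1 TATA box. The lower genes thus did not share a common set of these boxes. The median number of CG dinucleotides was 16 in member windows and 6 in all windows, with 16 in Epha3, 25 in Epha7, 35 in Slit3 and 27 in Efnb2. The counts are a description of sequence, not of binding.

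Other genes of the same pathways were listed with earlier results known. Of 42 such genes in the tables, 31 were tested. None was at least 1.5-fold higher, where 2.55% of all genes were, and 2 were at least 1.5-fold lower, where 3.57% of all genes were. The interval lay below 1 for 11 (15.9% of all genes) and above 1 for 4 (7.87% of all genes), and the median log2 ratio was -0.10 against -0.05 over all genes. The lower ones were Ntng1, a membrane-bound netrin relative, at 1.84 RPKM in the mutant library and 3.67 RPKM in the control library (1.99-fold lower, 1.49 to 2.62), and Rgma, a ligand of the netrin receptor neogenin, at 2.001 RPKM in the mutant library and 3.53 RPKM in the control library (1.76-fold lower, 1.33 to 2.31). Neo1, the neogenin gene itself and a relative of Dcc, was at 16.8 RPKM in the mutant library and 16.01 RPKM in the control library (1.05-fold, 0.97 to 1.15). Neo1 was thus far more abundant than Dcc in both libraries.

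Flrt3 and Flrt2, membrane proteins that bind Unc5 receptors, were lower. Flrt3 was at 11.5 RPKM in the mutant library and 15.8 RPKM in the control library (1.37-fold lower, 1.22 to 1.55), and Flrt2 at 10.4 RPKM in the mutant library and 14.1 RPKM in the control library (1.35-fold lower, 1.23 to 1.49). Pak2, a kinase that acts below Rac and Cdc42, was at 9.15 RPKM in the mutant library and 7.10 RPKM in the control library (1.29-fold higher, 1.09 to 1.54). Cdc42, a small GTPase used by several guidance receptors, was at 55.3 RPKM in the mutant library and 67.3 RPKM in the control library (1.22-fold lower, 1.13 to 1.32). Sdcbp, the syntenin gene whose product binds the tails of ephrin-B proteins, was at 24.3 RPKM in the mutant library and 20.1 RPKM in the control library (1.21-fold higher, 1.07 to 1.38). Fyn, a kinase of the Src family that relays Eph, ephrin and Dcc signals, was at 3.97 RPKM in the mutant library and 5.17 RPKM in the control library (1.30-fold lower, 1.03 to 1.62).

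Summed markers of several cell types, though not of all those listed, differed between the same libraries. All 13 markers of dental mesenchyme passed the filter, with Prrx1 highest at 122 RPKM in the mutant library and 151 RPKM in the control library. Without Osr2, 9 of the 12 mesenchyme markers had a log2 ratio below 0, as had 5623 of all 9779 genes tested. Those 12 markers summed to 358 RPKM in the mutant library and 449 RPKM in the control library, 1.25-fold lower. Set against that sum, a scale chosen after seeing the data, the log2 ratios were -0.59 for Epha3, -0.58 for Epha7 and -0.37 for Slit3, and 0.75 for Efnb2. On that scale Epha4 (0.00) and Robo1 (-0.05) were at equality, while the median of all genes stood at 0.22.

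Osteoblast markers, 5 of 5 tested, were at least 1.5-fold higher, where 2.55% of all genes were. Their sum was 49.2 RPKM in the mutant library and 16.7 RPKM in the control library. Of these markers, Sp7, Ibsp and Ifitm5 passed the filter only through the mutant library. Their control levels rest on about 7, 5 and 0 reads. Dental epithelium markers, 11 of 11 tested, had log2 ratios above 0, as had 4156 of all 9779 genes tested. They summed to 62.0 RPKM in the mutant library and 44.2 RPKM in the control library. Shh among them was at 0.175 RPKM in the mutant library and listed at 0 in the control library. Krt18 and Cdh1 passed the filter only through the mutant library. Endothelial markers, which bear on Efnb2, Ephb4, Robo4 and Unc5b, summed to 29.0 RPKM in the mutant library and 35.0 RPKM in the control library. Of 9 tested, 8 had a log2 ratio below 0, as had 5623 of all 9779 genes tested. An interval below 1 was found for 2 of the 9 (15.9% of all genes), including Tie1, which passed the filter only through the control library. Of 10 neuron and glia markers, which bear on Dcc, 6 were listed at 0 in the control library. Their sum was 7.63 RPKM in the mutant library and 4.81 RPKM in the control library, mainly from Nefl, at 4.43 RPKM in the mutant library and 2.03 RPKM in the control library. Gfra3 went the other way, at 0.253 RPKM in the mutant library and 1.397 RPKM in the control library. It was 5.52-fold lower (2.62 to 11.98), on only about 17 mutant and 15 control reads. Of the others, Tubb3, Stmn2 and Elavl3 were at no more than 0.0596 RPKM in the mutant library. Erythroid markers summed to 548 RPKM in the mutant library and 719 RPKM in the control library, and macrophage markers to 19.7 RPKM in the mutant library and 24.05 RPKM in the control library. Pericyte and smooth muscle markers summed to 19.6 RPKM in the mutant library and 22.7 RPKM in the control library, and skeletal muscle markers to 2.76 RPKM in the mutant library and 2.34 RPKM in the control library. As mutant over control, the intervals spanned 1 for the macrophage sum (0.71 to 1.01) and the pericyte and smooth muscle sum (0.92 to 1.13). Of 4 pericyte and smooth muscle markers tested, 2 had a log2 ratio above 0 and 2 below. Only Acta1 of the skeletal muscle markers passed the filter, and its interval spanned 1 (0.62 to 1.84). The part of these markers in the ratios of the guidance genes was not tested.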

How the data were processed

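RNA from laser-captured molar mesenchyme was extracted with the RNeasy micro kit and made into cDNA with the NuGEN Ovation RNA-Seq v2 kit, per the labels' protocols. TopHat 1.4.1, Bowtie 0.12.7 and mouse build mm9 were used, per the submitters' processing notes. The Cufflinks version was not stated in the labels. Each table lists 28107 RefSeq transcript rows with RPKM and coverage, per the file headers. The RPKM values were deposited by the authors and were not rescaled. Coverage was deposited by the authors as a signal not scaled for depth. Locus starts were taken as counted from 0 and are given from 1.

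The 54 rows, none of a member, flagged FAIL or HIDATA in at least 1 library were dropped and the rest summed per gene. Genes at 1 RPKM or more in at least 1 library (9779) were compared on log2(RPKM + 1), which understates the ratios of low genes; the 15 members below that had no call. No test was run because n = 1 per group. Approximate reads are coverage times length divided by 44.3 bases, the median of coverage times length over low values between 20 and 66, and are estimates. Exact Poisson intervals of levels and Clopper-Pearson intervals of ratios (95%) follow from them. The ratio intervals were run on simulated Poisson counts, with the depth ratio taken as known and no amplification copies. That run checks the calculation only, not its fit to these libraries. For members with several transcripts, and for sums, the interval is that of the reads and need not centre on the printed ratio. The named genes are all members, those below 1 RPKM with their levels but no call; of the other pathway genes, up to 6 at 5 RPKM or more with the largest ratios and any at least 1.5-fold apart, while Neo1 was added after its values were seen. The members and lists were chosen with earlier results of these data known. Computations used Python 3.11.15, pandas 2.3.3, NumPy 2.4.6 and SciPy 1.17.1.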

Additional observations from a re-analysis of the deposited data

How the results depend on the processing

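No paired analysis was possible because each genotype has 1 library. The summed receptor log2 ratio of -0.62 was -0.47 without Epha3, -0.25 without Epha3 and Epha7, and -0.29 relative to the summed mesenchyme markers, the last 2 settings being chosen after seeing the data. The summed ligand log2 ratio of -0.10 reversed to 0.034 without Slit3, the ligand with the highest level summed over both libraries, and to 0.22 relative to those markers. Relative to the markers, 2 of 24 members were at least 1.5-fold higher (8.90% of all genes) and 2 lower (1.61% of all genes), and Epha4 (0.00066) and Ephb4 (0.12) reversed; the markers' own difference is the cause by construction. The count at least 1.5-fold higher, 0 in the main setting, was 1 with a pseudocount of 0.1 RPKM (5.69% of all genes) and 6 of 32 on the TPM scale (12.1% of all genes). The TPM setting kept the filter and the pseudocount at 1 on larger numbers, so its counts also reflect a weaker filter and pseudocount. The summed receptor log2 ratio was -0.57 on the TPM scale. The count with an interval above 1, 2 in the main setting, was 4 without a filter (4.06% of all genes), 4 on the TPM scale (8.29%) and 1 with a filter of 5 RPKM (10.03%). The count at least 1.5-fold lower ranged over 3 to 6 under the other alternatives, with 1.79% to 11.6% of all genes. The count with an interval below 1 ranged over 6 to 12, with 8.56% to 20.8% of all genes, and was 12 with the highest transcript per gene (20.3% of all genes). Epha3, Epha7, Slit3, Robo1, Robo2 and Dcc stayed below 0 and Efnb2 and Unc5b above 0 under every alternative in which they passed the filter. The shallow control library, where 1 read of a member is worth 0.018 to 0.152 RPKM, limits the members below 1 RPKM.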
